A study of Mus musculus with 11 samples.

Results

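The 58 genes described here code for proteins that carry a cell through G2 and mitosis: the kinases and cyclins of mitotic entry, the spindle checkpoint, the machinery of anaphase, kinetochores, the chromosomal passenger complex, spindle motors, cytokinesis factors and the proteins that shape mitotic chromosomes. They were taken from a list of G2/M and mitosis genes, of which every one listed was in the table and had a mean of at least 1 CPM (counts scaled to a common library size) over all libraries, so 58 of 58 listed genes and 58 of the 22619 genes in the table are members. Their levels were measured by poly(A) RNA sequencing in 11 libraries of SMB21, a medulloblastoma line from a mouse strain with a Ptch1 mutation, grown as neurospheres. All groups, the controls among them, carry that Ptch mutant background. The groups are Ofd1-mutant clones from a transposon screen (4 libraries from 3 clones: replicates 1 and 2 are both R14, replicate 3 is R16, replicate 4 is R25), Sufu-mutant clones (R13 as replicate 1 and R1 as replicate 2), parental cells after 24 h with sonidegib (2 libraries) and untreated parental cells (3 libraries). Sonidegib inhibits Smoothened, the membrane protein that passes on the Hedgehog signal. The labels do not say whether the clones were grown with or without drug when RNA was taken, and in a group of clones the mutation cannot be told apart from other differences between clones.

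Mitosis genes are transcribed in a wave. Their transcripts are scarce in G1, build up from late S phase to mitosis and are no longer made after division, so in a culture of mixed stages their level is known to follow how many cells are near division. In bulk RNA, however, fewer cells in G2 and mitosis and less RNA in each such cell cannot be told apart. Many of these genes share promoter elements. A CCAAT box is bound by NF-Y, and the cell cycle genes homology region (CHR) is bound by the MuvB complex, which joins p107 or p130 in resting cells to form DREAM and joins B-Myb and FoxM1 in dividing cells. In granule cell progenitors and in the tumours they give rise to, Hedgehog signalling is known as the main drive to divide.

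The elements can be read in the promoters of the members with both of them and the highest mean CPM in their role, a choice by CPM that is not scaled to transcript length. The 250 bases before the start of a RefSeq transcript are shown, 5′ to 3′ on the gene's strand (RefSeq, GRCm38.p6). Ect2 and Bub3 have 2 such windows each, of which the first listed is shown. Capitals mark CHR letters (TTTGAA or TTCGAA) and CCAAT, each in either direction, so that TTCAAA and ATTGG count as matches too. The windows are those of the chromatin untangling enzyme Top2a (chr11:99024190-99024439, minus strand), the mitotic kinase Cdk1 (chr10:69352913-69353162, minus strand), the cytokinesis exchange factor Ect2 (chr3:27153879-27154128, minus strand), the spindle motor Kif11 (chr19:37376132-37376381, plus strand), the anaphase activator Cdc20 (chr4:118437344-118437593, minus strand) and the checkpoint protein Bub3 (chr7:131560120-131560369, plus strand).
Top2a: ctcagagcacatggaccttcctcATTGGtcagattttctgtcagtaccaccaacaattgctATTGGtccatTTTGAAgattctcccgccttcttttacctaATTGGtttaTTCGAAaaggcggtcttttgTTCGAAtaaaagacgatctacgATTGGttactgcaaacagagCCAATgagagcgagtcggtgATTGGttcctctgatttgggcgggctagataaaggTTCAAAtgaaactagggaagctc
Cdk1: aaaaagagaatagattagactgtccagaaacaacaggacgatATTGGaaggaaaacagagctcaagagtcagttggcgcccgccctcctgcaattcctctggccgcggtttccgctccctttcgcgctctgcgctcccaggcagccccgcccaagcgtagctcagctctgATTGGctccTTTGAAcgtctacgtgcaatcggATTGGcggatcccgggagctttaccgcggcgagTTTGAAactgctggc
Ect2: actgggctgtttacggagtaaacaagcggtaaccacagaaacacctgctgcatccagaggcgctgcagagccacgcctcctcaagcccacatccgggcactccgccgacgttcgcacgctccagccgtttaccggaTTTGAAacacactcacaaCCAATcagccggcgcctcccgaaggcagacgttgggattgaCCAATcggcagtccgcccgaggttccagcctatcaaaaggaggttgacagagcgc
Kif11: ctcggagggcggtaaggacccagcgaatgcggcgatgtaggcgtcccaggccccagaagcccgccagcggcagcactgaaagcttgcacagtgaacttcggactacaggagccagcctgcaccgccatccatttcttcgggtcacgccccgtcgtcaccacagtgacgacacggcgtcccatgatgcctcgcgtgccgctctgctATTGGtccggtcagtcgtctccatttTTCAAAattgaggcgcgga
Cdc20: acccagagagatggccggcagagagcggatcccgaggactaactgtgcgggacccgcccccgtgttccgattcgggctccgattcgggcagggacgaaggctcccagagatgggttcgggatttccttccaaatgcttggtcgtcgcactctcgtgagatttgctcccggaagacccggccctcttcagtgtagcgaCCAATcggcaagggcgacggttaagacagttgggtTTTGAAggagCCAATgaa
Bub3: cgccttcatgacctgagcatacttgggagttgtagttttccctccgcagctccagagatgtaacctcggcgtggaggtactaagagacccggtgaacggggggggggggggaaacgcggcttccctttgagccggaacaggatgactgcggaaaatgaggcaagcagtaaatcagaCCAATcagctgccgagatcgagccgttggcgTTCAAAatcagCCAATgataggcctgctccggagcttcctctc
The Top2a window holds 4 CHR and 6 CCAAT matches and the Cdk1 window 2 and 3, while Kif11 has 1 of each. The CHR match nearest to the start begins 15 bases before it in Cdk1, 18 in Cdc20, 19 in Kif11 and 23 in Top2a. Windows could be matched by symbol for 48 of the 58 members, and 44 of them have 1 window. For the rest the first listed window is counted, and in Prc1 a CHR match lies only in the other window. Of the 48 members, 18 (37.5%) hold a CHR match, 35 (72.9%) a CCAAT match and 16 (33.3%) both. The same letters occur in the windows of 17.4%, 34.5% and 6.21% of the 27018 genes of the promoter table, in that order. A match shows that the letters are there, and no match shows only that they are not in this window.

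Depth and labels were looked at before the members. Totals ran from 24308451 to 38241595 counts per library. Each mutated gene was still read in its clones, below the parental level: Ofd1 stood at 9.27 to 23.4 CPM in the Ofd1 mutants, and at 35.4 to 43.0 CPM in parental cells, and Sufu at 2.77 and 17.7 CPM in the Sufu mutants, against 27.7 to 29.6 CPM in parental cells. Such levels were not particular to those clones: Sufu was at 12.02 to 19.2 CPM in the Ofd1 mutants, and sonidegib replicate 2, from cells with neither mutation, had 23.4 CPM of Ofd1 and 5.60 CPM of Sufu. The Hedgehog target Gli1 stood at 7.67 and 8.82 CPM with sonidegib, and at 219.6 to 243 CPM in parental cells. The 12 granule cell progenitor markers were all above 1 CPM on average, whereas 8 of 9 microglia and macrophage, 8 of 8 fibroblast and pericyte and 6 of 7 endothelial markers were below 1 CPM. Sonidegib replicate 2 stands apart: the correlation of log2 level with transcript length over genes is 0.064 in this library, and 0.233 to 0.270 in the other 10. Counts of calls and medians over members, roles, promoter classes and other lists are therefore given with and without it where they rest on sonidegib.

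In sum the members took up 8922, 10900, 11520 and 11460 CPM in the Ofd1 mutants, 8866 and 9094 CPM in the Sufu mutants, 4813 and 3852 CPM in sonidegib-treated cells and 9706, 10750 and 8190 CPM in untreated parental cells, always listed in the order of the replicates. Both sonidegib libraries lie below every other library, and the 9 others overlap between their groups. The median member stood at a log2 ratio to the parental mean of -0.15, 0.19, 0.23 and 0.21 in the Ofd1 mutants, of -0.06 and -0.04 in the Sufu mutants and of -0.96 and -1.38 with sonidegib. Of the 58 members, 56 lay below all 3 parental libraries in sonidegib replicate 1 and 53 in replicate 2. The same count was 17, 2, 3 and 6 in the Ofd1 mutants and 15 and 13 in the Sufu mutants. Over the 13809 genes tested with sonidegib over parental cells, 27.9% and 37.4% lay below all 3 parental libraries in the sonidegib libraries, and 25.6% to 32.6% in the mutant libraries. The 17 members of Ofd1 replicate 1 (29.3%) and the 15 and 13 of the Sufu mutants (25.9% and 22.4%) are thus near the share of all genes in their libraries or below it. S phase genes, a list of 44 genes for DNA replication, stood at a median log2 ratio of -1.24 and -1.17 in the sonidegib libraries. The ratio of the summed mitosis genes to the summed S phase genes was 1.29 to 1.57 in the Ofd1 mutants, 1.52 and 1.76 in the Sufu mutants, 1.43 and 1.16 with sonidegib and 1.20 to 1.47 in parental cells. Both Sufu libraries lie above all sonidegib and parental libraries in this ratio, while the Ofd1 mutants overlap with every other group and sonidegib overlaps with parental cells. Per kilobase of transcript, the scale on which genes can be set side by side, mean levels over all libraries ran from 11.2 CPM per kb for the checkpoint kinase Ttk to 169.6 CPM per kb for the cytokinesis gene Racgap1, with Top2a at 133, the condensin gene Ncapd2 at 129 and Ccna2 at 121 next.

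**Figure D1:**
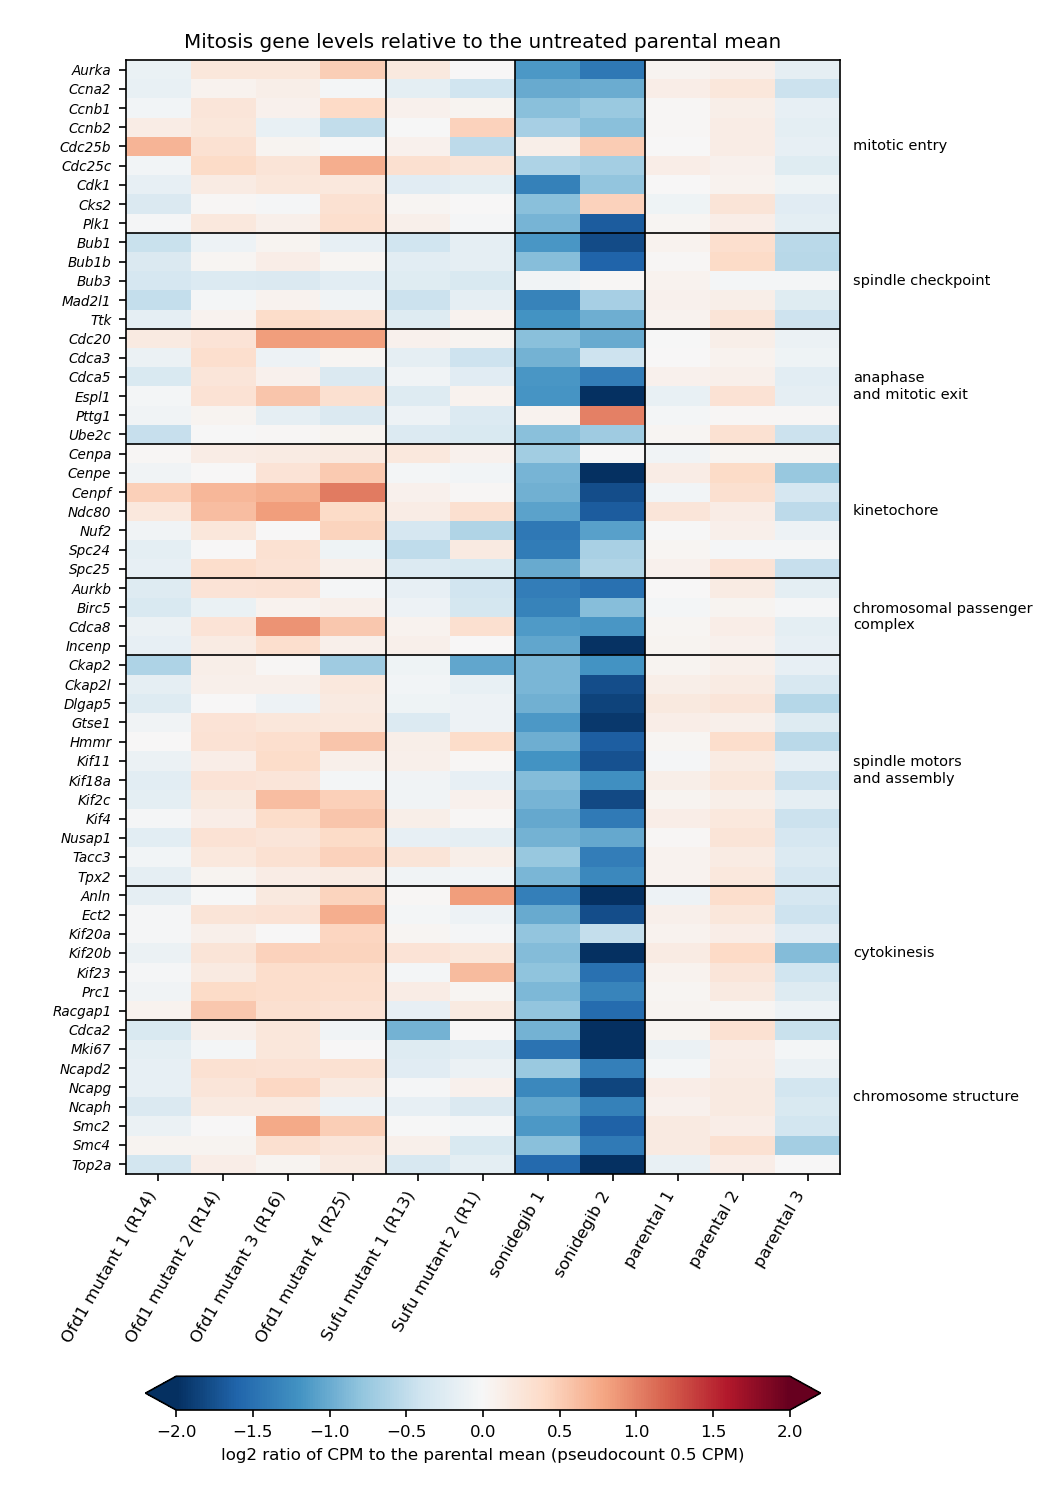
Log2 ratio of each member's CPM to the mean of the 3 untreated parental libraries (pseudocount 0.5 CPM), with 58 genes in rows by role and 11 libraries in columns. Blue is lower and red higher than the parental mean. The columns of sonidegib are blue for nearly all genes, with medians of -0.96 and -1.38, except for Bub3, Pttg1 and Cdc25b in both columns and for Cks2 and Cenpa in replicate 2, which are pale or red.

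Sonidegib against untreated parental cells asks what 24 h of Smoothened inhibition did to mitosis genes. The log2 fold change was negative for 56 of 58 members, with a median of -1.14, against 0.04 over the 13809 genes tested. In linear terms the median member stood at 0.453 of its parental level. The extremes were the proliferation marker Mki67 at -1.97 and the securin gene Pttg1 at 0.62. For 53 members both treated libraries lay below all 3 parental ones, as they did for 16.3% of all genes tested. None of the members passed the edgeR test at an adjusted p under 0.05. Their lowest adjusted p was 0.0847, for Aurkb, and 53 had an unadjusted p under 0.05, against 14.04% of all genes. Calls were rare over the whole table too, with 0.00724% of genes higher and 0.0579% lower. DESeq2 called 44 members lower, where it called 212 genes of the table higher and 499 lower. Without sonidegib replicate 1 the median was -1.45. Without sonidegib replicate 2, which stands apart, none was called and the median was -0.98.

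The Ofd1 mutants against sonidegib-treated cells gave the most calls among the members. Of 58, 43 were higher in the Ofd1 mutants at an adjusted p under 0.05 and 0 lower, which is 74.1% of members, where 3.97% of the 14014 genes tested were called higher and 2.45% lower. The adjusted p of the 43 ran from 0.0164 to 0.0495, and their log2 fold changes from 0.98 (the kinetochore subunit gene Spc25) to 2.06 (Cenpf). The median over all 58 was 1.32, or 2.50 times the treated level, against -0.01 over all genes. In 54 members all 4 Ofd1 libraries lay above both treated ones and in 2, Bub3 and Pttg1, below, with 19.0% and 19.3% of all genes doing so. DESeq2 called 51 members higher, the 43 among them, where it called 1374 genes of the table higher and 1161 lower. The count depends on single libraries: it was 22, 5, 1 and 18 without Ofd1 replicates 1, 2, 3 and 4 in turn and 17 with the R14 libraries summed to 1. Without sonidegib replicate 2 the count fell as well, to the genes named below. The median stayed between 1.13 and 1.62 over these and the other settings tried. The gene left without Ofd1 replicate 3 was Ndc80, and those left without sonidegib replicate 2 were Cdk1, Gtse1 and Mki67. The counts by role given below thus depend on single libraries too, on Ofd1 replicates 2 and 3 as well as on sonidegib replicate 2. Leaving out sonidegib replicate 2 also leaves 1 library in that group. Shares of all genes called with a library left out are not given here. Whether calls were lost over the whole table as well thus cannot be told. The role medians ran from 1.00 to 1.44 without sonidegib replicate 2, and from 1.00 to 1.58 with it. All p-values measure only the spread between these libraries, which may be technical, and R14 gives 2 of the 4 Ofd1 libraries.

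**Figure D2:**
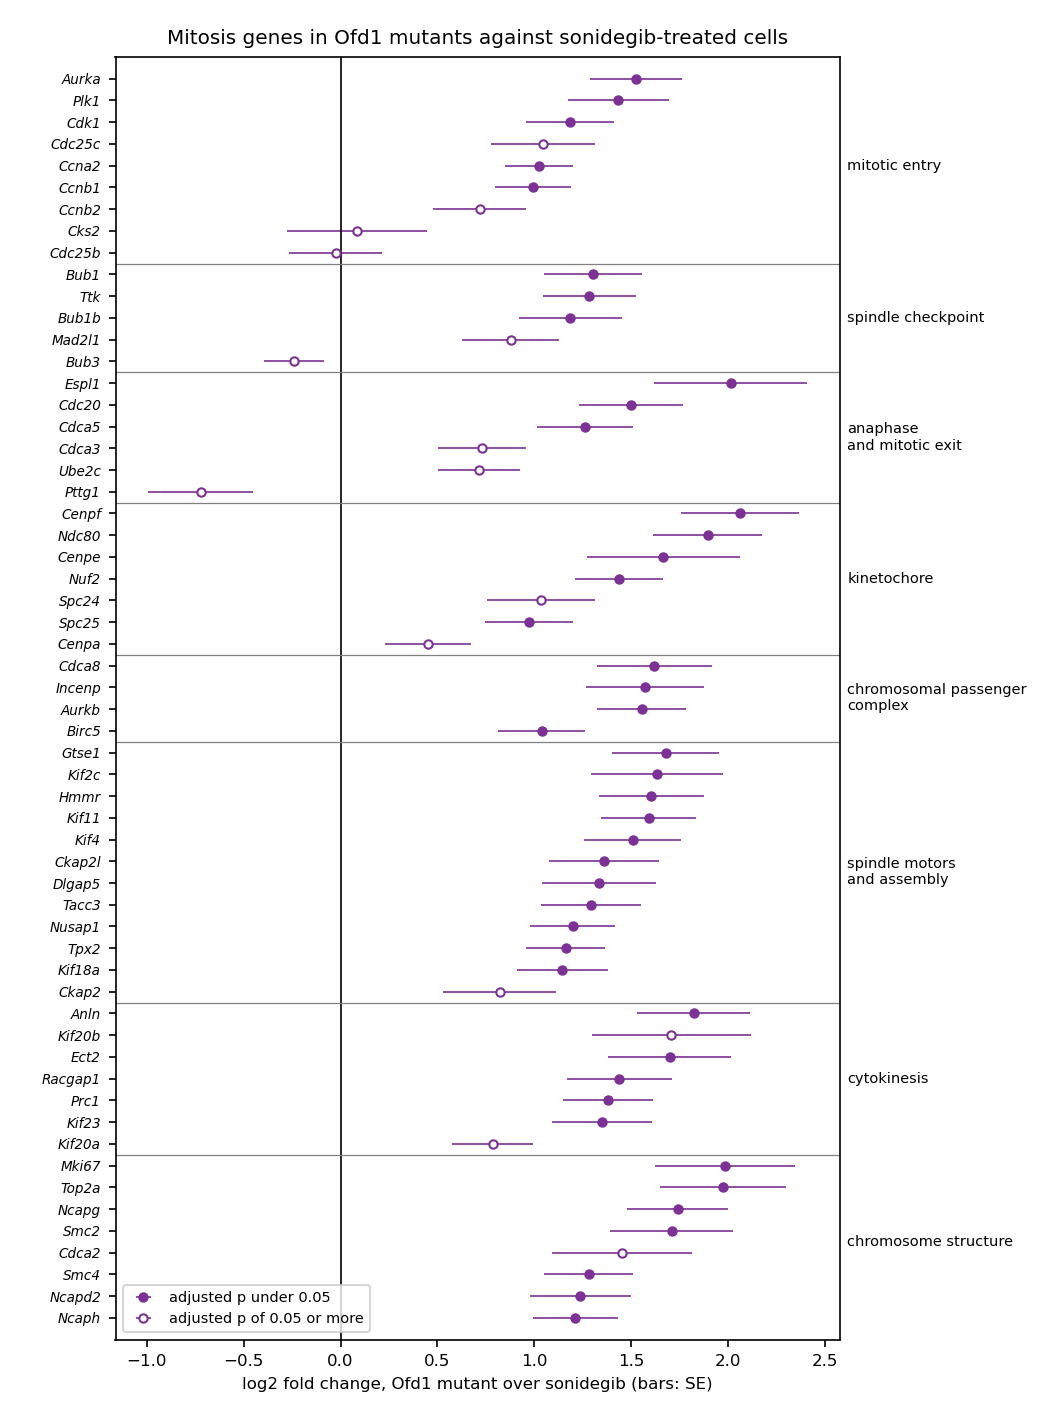
Log2 fold change of the 58 members in Ofd1 mutants over sonidegib-treated cells, by role, with SE bars. Filled points have an adjusted p under 0.05 (43 genes). All filled points lie at 0.98 or more, and Bub3, Pttg1 and Cdc25b lie below 0.

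The Sufu mutants set against the same sonidegib libraries leave 2 libraries on each side. The log2 fold change was positive for 55 members, with a median of 1.11, against -0.03 over the 13613 genes tested, and it ran from -0.78 (Pttg1) to 2.18 (the cytokinesis gene Anln). Both Sufu libraries lay above both treated ones in 52 members and below in 3, Cdc25b, Bub3 and Pttg1, beside 23.5% and 25.9% of all genes. No member passed the edgeR test, in which 0.0882% of all genes were higher and 0.0220% lower. There were 45 members with an unadjusted p under 0.05, against 14.02% of all genes. DESeq2 called 19 members higher, where it called 507 genes of the table higher and 279 lower. Without sonidegib replicate 2 again none was called, and the median was 0.95. The 3 comparisons with treated cells share the sonidegib libraries, and those with untreated cells share the parental libraries, so they are not independent of each other.

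**Figure D3:**
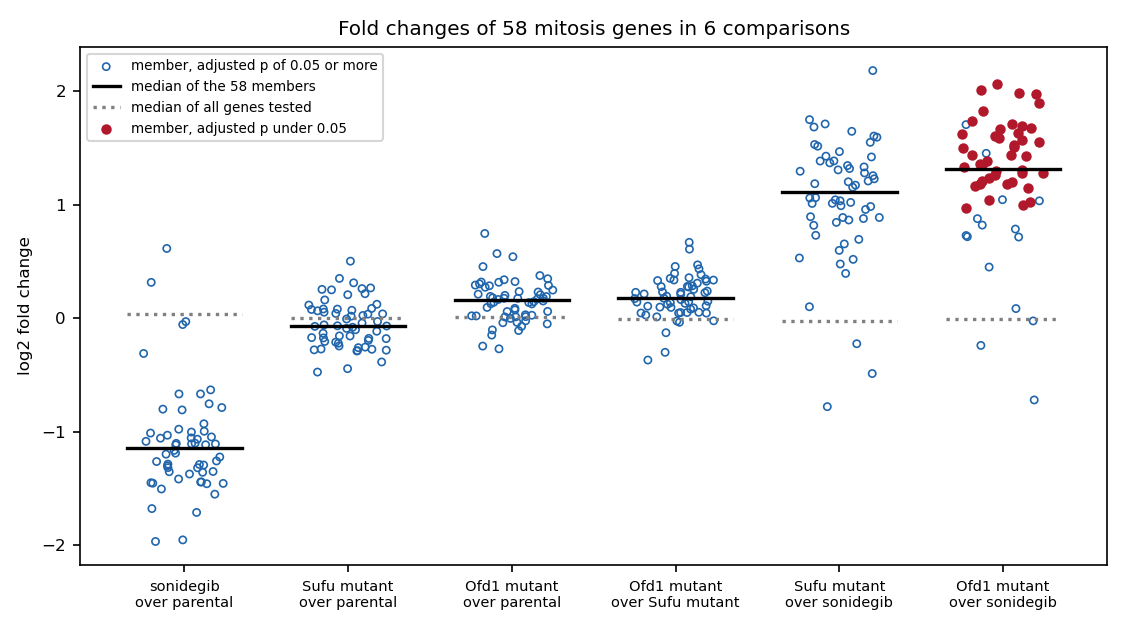
Log2 fold changes of the 58 members in 6 comparisons, with 1 point per gene. Black lines are the medians of the members (-1.14, -0.07, 0.16, 0.18, 1.11 and 1.32 from left to right) and dotted lines those of all genes tested. Filled points passed the edgeR test and occur in the comparison of Ofd1 mutants with sonidegib, with 43 of them.

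Among the genes of mitotic entry, 5 of 9 were called higher in the Ofd1 mutants than in treated cells. Ccna2, the cyclin that acts from S phase into early mitosis and the highest of these genes in CPM and per kilobase, had 368, 429, 444 and 397 CPM in the Ofd1 mutants, 355 and 308 CPM in the Sufu mutants, 203 and 204 CPM with sonidegib and 446, 477 and 302 CPM in parental cells. Both treated libraries lie below the rest, and the other groups overlap. On the log2 scale it stood at 1.03 ± 0.18 (SE, adjusted p = 0.0227) in the Ofd1 mutants over treated cells and -1.01 ± 0.27 (SE, adjusted p = 0.199) with sonidegib over parental cells. Cdk1, the kinase that cyclins A and B activate, had 233, 294, 306 and 304 CPM in the Ofd1 mutants, 223 and 229.8 CPM in the Sufu mutants, 102 and 151 CPM with sonidegib and 262, 276 and 248 CPM in parental cells. The treated libraries are again the lowest, and replicate 1 is the lower of them, while the R14 library of replicate 1 is the lowest Ofd1 mutant. Aurka, a kinase of the spindle poles, had 92.5, 119, 120.0 and 144 CPM in the Ofd1 mutants, 117 and 103 CPM in the Sufu mutants, 45.8 and 37.6 CPM with sonidegib and 106, 110.0 and 90.0 CPM in parental cells, and was 1.53 ± 0.24 (SE, adjusted p = 0.0180) in the Ofd1 mutants over treated cells. Ccnb1 and Plk1, the main B-type cyclin and a kinase with many mitotic substrates, were called as well, at 0.99 and 1.43. Ccnb2, the other B-type cyclin, had 111, 118, 90.5 and 71.3 CPM in the Ofd1 mutants, 99.7 and 138 CPM in the Sufu mutants, 63.4 and 56.4 CPM with sonidegib and 102, 112 and 88.3 CPM in parental cells. Its treated libraries are the lowest, the Sufu clone R1 is the highest and R25 is the lowest mutant, and the log2 fold change of 0.72 ± 0.24 (SE, adjusted p = 0.107) in the Ofd1 mutants over treated cells was not called.

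In a pair of entry genes, Cdc25b and Cks2, the treated libraries did not both lie below the rest. Cdc25b, a phosphatase that removes inhibitory phosphates from cyclin-dependent kinases, had 357, 276, 233 and 223 CPM in the Ofd1 mutants, 236 and 155 CPM in the Sufu mutants, 242 and 318 CPM with sonidegib and 225, 247 and 199 CPM in parental cells. Treated cells overlap with parental cells and with the Ofd1 mutants, in which R14 replicate 1 is the highest library of all, and lie above both Sufu mutants. Its log2 fold change was 0.32 ± 0.22 (SE, adjusted p = 0.501) with sonidegib over parental cells. The sister phosphatase Cdc25c had 25.8, 35.2, 32.3 and 44.8 CPM in the Ofd1 mutants, 33.7 and 32.1 CPM in the Sufu mutants, 17.3 and 16.6 CPM with sonidegib and 29.3, 28.5 and 22.5 CPM in parental cells, with both treated libraries below all others. Cks2, a small Cdk1-binding protein with the shortest transcript of the set at 692 bases, had 21.0, 26.1, 25.4 and 31.8 CPM in the Ofd1 mutants, 26.4 and 26.0 CPM in the Sufu mutants, 14.2 and 35.8 CPM with sonidegib and 24.3, 31.1 and 22.0 CPM in parental cells. The treated libraries lie on either side of all others.

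In the spindle checkpoint, which holds anaphase back until all chromosomes are attached, 3 of 5 genes were called higher in the Ofd1 mutants than in treated cells. Bub1, a kinase that recruits the other checkpoint proteins, had 109, 139.7, 155 and 133 CPM in the Ofd1 mutants, 114 and 132 CPM in the Sufu mutants, 66.7 and 42.9 CPM with sonidegib and 157, 189 and 103 CPM in parental cells. Both treated libraries are the lowest, and parental replicate 3 is below the other 2 parental libraries and below every mutant. Its log2 fold change was 1.31 ± 0.25 (SE, adjusted p = 0.0300) in the Ofd1 mutants over treated cells. Ttk, the kinase that starts checkpoint signalling, and Bub1b, a subunit of the inhibitor of the anaphase-promoting complex, were called at 1.28 and 1.19. Mad2l1, another subunit of that inhibitor, stood at 0.88 with an adjusted p of 0.0771.

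Bub3, which docks Bub1 and Bub1b at kinetochores and is the highest of the 5 in CPM and per kilobase, had 138, 144, 144 and 151 CPM in the Ofd1 mutants, 147 and 142 CPM in the Sufu mutants, 167 and 178 CPM with sonidegib and 184, 171 and 171 CPM in parental cells. Treated and parental cells overlap and lie above all 6 mutant libraries. Bub3 had a log2 fold change of -0.03 ± 0.19 (SE, adjusted p = 0.944) with sonidegib, -0.27 ± 0.09 (SE, adjusted p = 0.229) in the Ofd1 mutants and -0.26 ± 0.13 (SE, adjusted p = 0.578) in the Sufu mutants over parental cells. None of these passed the test. Its promoter, printed above, holds 1 CHR and 2 CCAAT matches.

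For anaphase and mitotic exit, 3 of 6 genes were called higher in the Ofd1 mutants than in treated cells. Cdc20, which activates the anaphase-promoting complex, had 175, 188, 279 and 274 CPM in the Ofd1 mutants, 165 and 162 CPM in the Sufu mutants, 86.7 and 77.1 CPM with sonidegib and 155, 168 and 143 CPM in parental cells. Ofd1 replicates 3 and 4 (clones R16 and R25) are the highest, the R14 libraries follow, Sufu mutants and parental cells overlap, and treated cells are the lowest. Cdc20 was called at 1.50 ± 0.27 (SE, adjusted p = 0.0252) in the Ofd1 mutants over treated cells. Espl1, the separase that cuts cohesin, had 119, 149, 179 and 152 CPM in the Ofd1 mutants, 102 and 129 CPM in the Sufu mutants, 53.6 and 21.1 CPM with sonidegib and 109.7, 149 and 108 CPM in parental cells. Sonidegib replicate 2 holds the least, replicate 1 comes next and the other groups overlap, and the log2 fold change of 2.01 ± 0.40 (SE, adjusted p = 0.0305) in the Ofd1 mutants passed the test. The cohesion protector Cdca5 (sororin) was called at 1.26. Ube2c, the ubiquitin-conjugating enzyme of the anaphase-promoting complex, and Cdca3 stood at 0.72 and 0.73 and were not called.

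Pttg1 codes for securin, the inhibitor that separase is freed from at anaphase, and had 25.9, 28.0, 23.9 and 22.0 CPM in the Ofd1 mutants, 25.3 and 22.3 CPM in the Sufu mutants, 28.4 and 55.1 CPM with sonidegib and 26.2, 27.4 and 27.6 CPM in parental cells. Both treated libraries lie above all others, replicate 2 far above and replicate 1 by little. Its log2 fold change was 0.62 ± 0.30 (SE, adjusted p = 0.398) with sonidegib over parental cells and -0.72 ± 0.27 (SE, adjusted p = 0.135) in the Ofd1 mutants over treated cells. It passed neither test, though without sonidegib replicate 1 it was called lower in the Ofd1 mutants than in treated cells.

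**Figure D4:**
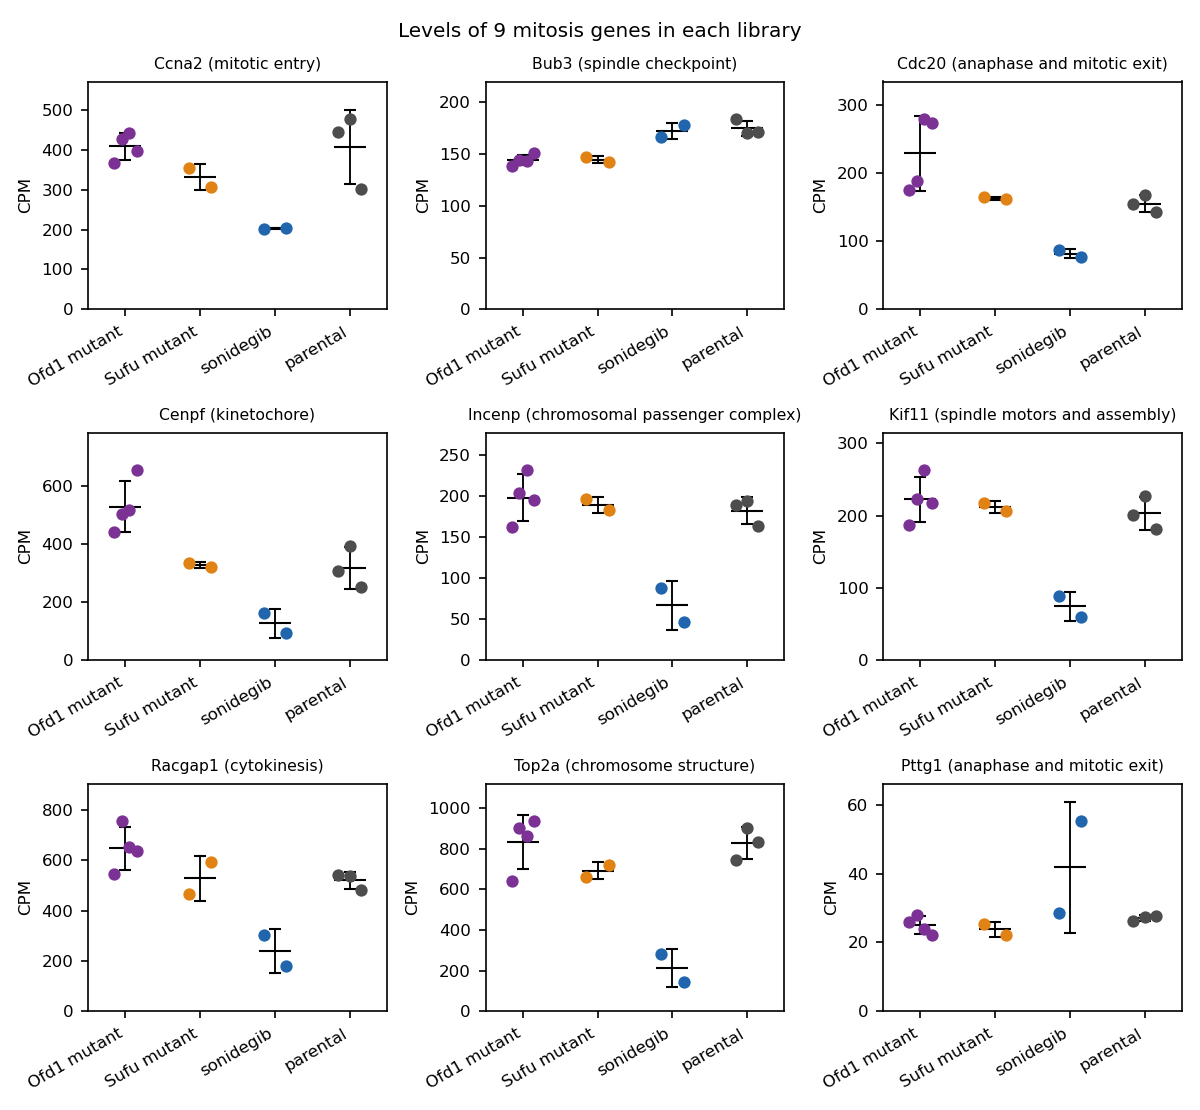
CPM of 9 members in each library: the member with the highest mean CPM, not scaled to length, in each of the 8 roles, and Pttg1. Points are libraries, and bars are the mean and SD of a group (4 Ofd1, 2 Sufu, 2 sonidegib and 3 parental libraries). Treated cells are the lowest group in all panels but those of Bub3 and Pttg1.

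The kinetochore joins chromosomes to spindle microtubules, and 5 of its 7 genes were called higher in the Ofd1 mutants than in treated cells. Cenpf, a large protein of the outer kinetochore, had 442, 504, 519 and 654 CPM in the Ofd1 mutants, 336 and 322 CPM in the Sufu mutants, 163 and 92.8 CPM with sonidegib and 307, 395 and 251 CPM in parental cells. All 4 Ofd1 libraries lie above the 3 parental and the 2 Sufu libraries, and treated cells are the lowest. The log2 fold change of 2.06 ± 0.31 (SE, adjusted p = 0.0164) in the Ofd1 mutants over treated cells was the largest of the 58 in that comparison. Ndc80, which with Nuf2, Spc24 and Spc25 forms the complex that binds microtubules, had 71.6, 94.9, 111 and 80.8 CPM in the Ofd1 mutants, 68.5 and 77.1 CPM in the Sufu mutants, 29.3 and 19.2 CPM with sonidegib and 73.5, 68.9 and 42.9 CPM in parental cells. Its 1.90 ± 0.28 (SE, adjusted p = 0.0164) gave the lowest p of the members in that comparison. Nuf2 had 183, 226, 194 and 261 CPM in the Ofd1 mutants, 153 and 127 CPM in the Sufu mutants, 70.9 and 90.7 CPM with sonidegib and 192, 206 and 178 CPM in parental cells, with the Sufu mutants between treated and parental cells. It was called at 1.44 in the Ofd1 mutants over treated cells, as was the kinesin Cenpe at 1.67. Cenpa, the histone H3 variant that marks centromeres, had 69.4, 76.3, 76.4 and 77.5 CPM in the Ofd1 mutants, 79.0 and 72.6 CPM in the Sufu mutants, 42.1 and 69.1 CPM with sonidegib and 65.1, 70.1 and 70.2 CPM in parental cells, so sonidegib replicate 1 lies below all other libraries and replicate 2 among the parental ones.

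All 4 genes of the chromosomal passenger complex, which corrects faulty attachments and later sits at the cleavage plane, were called higher in the Ofd1 mutants than in treated cells. Aurkb, its kinase, had 57.5, 83.8, 84.4 and 68.3 CPM in the Ofd1 mutants, 61.6 and 53.2 CPM in the Sufu mutants, 26.3 and 24.2 CPM with sonidegib and 69.8, 77.8 and 60.1 CPM in parental cells. The treated libraries lie close to each other and below the rest. On the log2 scale Aurkb stood at 1.56 ± 0.23 (SE, adjusted p = 0.0164) in the Ofd1 mutants over treated cells and -1.46 ± 0.23 (SE, adjusted p = 0.0847) with sonidegib over parental cells. Incenp, the scaffold, had 162, 204, 231 and 195 CPM in the Ofd1 mutants, 196 and 183 CPM in the Sufu mutants, 88.3 and 46.1 CPM with sonidegib and 189.7, 194 and 163 CPM in parental cells. Again the treated libraries are the lowest, and replicate 2 holds less than replicate 1. Cdca8 (borealin) was called at 1.62 and Birc5 (survivin) at 1.04.

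Among spindle motors and assembly factors, 11 of 12 genes were called higher in the Ofd1 mutants than in treated cells. Kif11, the motor that pushes spindle poles apart, had 187, 222, 262 and 218 CPM in the Ofd1 mutants, 218 and 206 CPM in the Sufu mutants, 88.7 and 60.2 CPM with sonidegib and 201, 227 and 181 CPM in parental cells. Treated libraries are the lowest and the other groups overlap, and the log2 fold change was 1.59 ± 0.25 (SE, adjusted p = 0.0175) in the Ofd1 mutants over treated cells. Gtse1, which binds microtubules, had 65.1, 82.5, 79.9 and 78.8 CPM in the Ofd1 mutants, 56.4 and 63.4 CPM in the Sufu mutants, 30.6 and 17.6 CPM with sonidegib and 74.5, 73.1 and 57.0 CPM in parental cells, and the motor Kif4 had 56.5, 63.5, 74.2 and 84.7 CPM in the Ofd1 mutants, 62.2 and 58.3 CPM in the Sufu mutants, 28.1 and 21.4 CPM with sonidegib and 63.2, 66.7 and 42.8 CPM in parental cells. These were called at 1.68 and 1.51. Hmmr, Kif2c, Ckap2l, Dlgap5, Tacc3, Nusap1, Tpx2 and Kif18a were called at 1.14 to 1.63. Ckap2, a microtubule-associated protein, was not called, at 0.82 ± 0.29 (SE, adjusted p = 0.124). It had 66.2, 110.1, 104 and 61.8 CPM in the Ofd1 mutants, 95.7 and 49.3 CPM in the Sufu mutants, 53.6 and 44.0 CPM with sonidegib and 105, 109 and 90.9 CPM in parental cells, so libraries of the same genotype differ: R25 and 1 of the R14 libraries lie near treated cells, as does the Sufu clone R1.

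Cytokinesis genes were called in 5 of 7 cases in the Ofd1 mutants over treated cells. Racgap1, a subunit of centralspindlin and the highest of them in CPM and per kilobase, had 546, 755, 654 and 637 CPM in the Ofd1 mutants, 466 and 592 CPM in the Sufu mutants, 302 and 179 CPM with sonidegib and 543, 537 and 483 CPM in parental cells. All Ofd1 libraries lie above the parental ones, the Sufu libraries lie on either side, and treated cells are the lowest. Its log2 fold change was 1.44 ± 0.27 (SE, adjusted p = 0.0277) in the Ofd1 mutants over treated cells. Anln, which ties actin and myosin at the contractile ring, had 131, 148, 171 and 204 CPM in the Ofd1 mutants, 152 and 266 CPM in the Sufu mutants, 57.4 and 35.8 CPM with sonidegib and 138, 190.5 and 118 CPM in parental cells. Sufu replicate 2 (clone R1) is the highest of all 11 libraries, and the log2 fold change was 1.82 ± 0.29 (SE, adjusted p = 0.0187) in the Ofd1 mutants over treated cells. Prc1, which bundles the microtubules of the midzone, had 155, 214, 209 and 207 CPM in the Ofd1 mutants, 182 and 169 CPM in the Sufu mutants, 87.3 and 64.8 CPM with sonidegib and 168, 186 and 136 CPM in parental cells. Prc1, Ect2 and Kif23 were called at 1.38, 1.70 and 1.35. Kif23, the motor of centralspindlin, had 120.3, 139, 157 and 156 CPM in the Ofd1 mutants, 119 and 190.1 CPM in the Sufu mutants, 70.2 and 43.0 CPM with sonidegib and 129, 145 and 93.1 CPM in parental cells, with the Sufu clone R1 as the highest library. Kif20b stood at 1.71 ± 0.41 (SE, adjusted p = 0.0516) and Kif20a at 0.79 ± 0.21 (SE, adjusted p = 0.0654), neither of them called.

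Of the genes of chromosome structure, 7 of 8 were called higher in the Ofd1 mutants than in treated cells. Their median log2 fold change was 1.58 in the Ofd1 mutants over treated cells and -1.41 with sonidegib over parental cells, beside 1.56 and -1.31 for the chromosomal passenger complex. Without sonidegib replicate 2 the order turned, with 1.25 and -1.12 for chromosome structure and 1.37 and -1.26 for the passenger complex. Top2a had 638, 902, 859.9 and 934 CPM in the Ofd1 mutants, 661 and 720.1 CPM in the Sufu mutants, 281 and 146 CPM with sonidegib and 746, 903 and 830.4 CPM in parental cells. Mki67, the protein that coats mitotic chromosomes, had 636, 703, 849.5 and 731 CPM in the Ofd1 mutants, 605 and 625 CPM in the Sufu mutants, 259 and 111 CPM with sonidegib and 671, 798 and 704 CPM in parental cells. In both genes the treated libraries are far below all others, and replicate 2 is the lower one. The log2 fold changes in the Ofd1 mutants over treated cells were 1.98 ± 0.33 (SE, adjusted p = 0.0208) for Top2a and 1.99 ± 0.36 (SE, adjusted p = 0.0261) for Mki67. Ncapg, a subunit of condensin I, had 73.5, 97.9, 109.6 and 93.0 CPM in the Ofd1 mutants, 80.8 and 87.1 CPM in the Sufu mutants, 33.6 and 22.8 CPM with sonidegib and 89.9, 93.1 and 64.1 CPM in parental cells, and was called at 1.74. The other condensin subunits Smc2, Smc4, Ncapd2 and Ncaph were called at 1.21 to 1.71. Cdca2, which brings protein phosphatase to chromosomes at mitotic exit, stood at 1.45 ± 0.36 (SE, adjusted p = 0.0553).

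Against untreated parental cells, no member passed the edgeR test in either kind of mutant. In the Ofd1 mutants the log2 fold change was positive for 47 members, with a median of 0.16, against 0.01 over the 13779 genes tested. No member passed the edgeR test, where 0.181% of genes were higher and 0.181% lower. Of the 58 members, 5 had an unadjusted p under 0.05, a smaller share than the 13.78% of all genes. Those 5 were Cenpf at 0.75 ± 0.19 (SE, adjusted p = 0.141), Cdc20 at 0.57 ± 0.19 (SE, adjusted p = 0.240), Ndc80 at 0.54, Racgap1 at 0.32 and Bub3 at -0.27. DESeq2 called Cenpf, with an adjusted p of 0.0123. All 4 Ofd1 libraries lay above all parental ones in 3 members (Cdc20, Cenpf and Racgap1) and below them in 1 (Bub3), beside 6.17% and 7.25% of all genes. The lowest log2 fold changes were those of Bub3 and of Ckap2 at -0.25. The median was 0.02 without parental replicate 3, the parental library with the lowest members, and between 0.02 and 0.43 over all settings.

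In the Sufu mutants the log2 fold change over parental cells was positive for 24 members and negative for 34, with a median of -0.07, against 0.004 over the 13854 genes tested. It ran from -0.48 (Ckap2) to 0.50 (Anln), with Nuf2 at -0.45 ± 0.15 (SE, adjusted p = 0.462) and Kif23 at 0.35. Neither a member nor any other gene passed the edgeR test (0% higher and 0% lower), and DESeq2 called no member. Nuf2 was the 1 member with an unadjusted p under 0.05, against 9.68% of all genes. Both Sufu libraries lay above all parental ones in 2 members (Cdc25c and Cenpa) and below them in 9, among them Cdk1, Top2a and Mki67, beside 11.9% and 14.8% of all genes. The median was -0.20 without parental replicate 3, and 0.24 with that library as the only control.

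Ofd1 mutants against Sufu mutants asks whether the clone classes differ in mitosis genes. The log2 fold change was positive for 52 members, with a median of 0.18, against -0.003 over the 14026 genes tested. No member was called by edgeR, with 0.00713% of genes higher and 0% lower. Of the 58 members, 4 had an unadjusted p under 0.05, a smaller share than the 8.933% of all genes. These 4 were Cenpf at 0.67 ± 0.18 (SE, adjusted p = 0.407), Nuf2 at 0.61 ± 0.19 (SE, adjusted p = 0.447), Spc25 at 0.44 and Gtse1 at 0.34. DESeq2 called Cenpf, with an adjusted p of 0.0449. In 10 members all Ofd1 libraries lay above both Sufu libraries and in 0 below, beside 9.85% and 8.34% of all genes. The lowest were Anln at -0.37 and Ccnb2 at -0.30. The median lay between 0.14 and 0.28 over all settings tried.

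Libraries of the same genotype differed as well, and since R16 and R25 have 1 library each, a difference between Ofd1 clones cannot be told apart from one between libraries of 1 clone. Within the Ofd1 mutants, replicate 1 of clone R14 was the lowest of the 4 libraries in 54 of 58 members, and replicate 2 of the same clone lay above it in 57, with a median log2 difference of 0.30. The highest library was R25 in 23 members, R16 in 22 and R14 replicate 2 in 12. The median SD of a member's log2 level was 0.23 in the Ofd1 mutants, 0.09 in the Sufu mutants, 0.40 with sonidegib and 0.22 in parental cells, against 0.22, 0.20, 0.37 and 0.20 over all genes in that order. The widest members were Cdca8 (0.43) in the Ofd1 mutants, Ckap2 (0.67) in the Sufu mutants and Kif20b in the sonidegib (0.98) and parental (0.67) groups.

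The 2 sonidegib libraries differed by transcript length. Members with short transcripts (12 under 2000 bp) stood at a median log2 ratio to the parental mean of -0.90 in replicate 1 and -0.66 in replicate 2. Members with long transcripts (17 over 4000 bp) stood at -1.02 in replicate 1 and -1.77 in replicate 2. The log2 ratio of replicate 2 to replicate 1 had a Pearson r with log length of -0.60 and a Spearman rho of -0.56 over the 58 members, which share these libraries and are not independent, and an r of -0.51 over 13688 genes. In the 10 pairs of libraries within the other groups, r over the members lay between -0.325 (parental replicates 3 and 2) and 0.29 (parental replicates 2 and 1). With the length trend removed, 49 members were higher in the Ofd1 mutants than in treated cells, 42 of them also called without that step, and 6 were lower with sonidegib than in parental cells. Then Cks2 stood at -0.72 and Cenpa at -0.67 with sonidegib over parental cells, Pttg1 at 0.28, Cdc25b at 0.27 and Bub3 at -0.02.

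**Figure D5:**
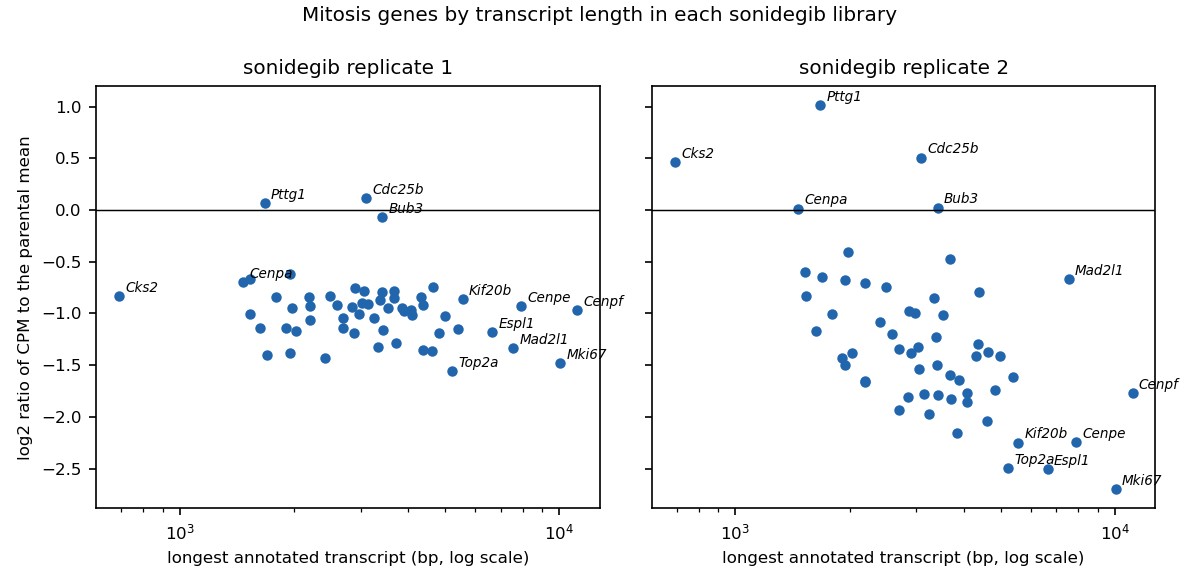
Log2 ratio of each member's CPM to the parental mean against its longest annotated transcript, in sonidegib replicates 1 and 2 (58 points each). In replicate 1 the medians are alike (-0.90 under 2000 bp and -1.02 over 4000 bp), with single genes between -1.56 (Top2a) and 0.12 (Cdc25b). In replicate 2 short transcripts lie higher (median -0.66 under 2000 bp) than long ones (median -1.77 over 4000 bp).

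Regulators of these genes were read from a separate list of 19. In the Ofd1 mutants over treated cells 9 of 19 were called higher and none lower, with a median log2 fold change of 0.55. Without sonidegib replicate 2 it was 5 of 19, with Mybl2 and E2f1 among them but not Foxm1, and the median was 0.61. Foxm1, the forkhead factor of G2/M genes, had 254, 334, 369 and 309.5 CPM in the Ofd1 mutants, 245 and 242 CPM in the Sufu mutants, 118 and 89.1 CPM with sonidegib and 278, 306 and 260.5 CPM in parental cells. Mybl2, which codes for B-Myb, had 43.3, 50.9, 60.7 and 46.5 CPM in the Ofd1 mutants, 39.4 and 36.5 CPM in the Sufu mutants, 15.2 and 15.3 CPM with sonidegib and 68.2, 64.8 and 46.4 CPM in parental cells. E2f1, an activator at the start of S phase, had 102, 116, 125 and 99.5 CPM in the Ofd1 mutants, 93.7 and 106 CPM in the Sufu mutants, 37.1 and 36.3 CPM with sonidegib and 91.9, 106 and 83.2 CPM in parental cells. In all 3 the treated libraries are the lowest, and the Ofd1 mutants overlap with parental cells. Their log2 fold changes in the Ofd1 mutants over treated cells were 1.62 ± 0.24, 1.73 ± 0.22 and 1.61 ± 0.19 (adjusted p = 0.0163, 0.0131 and 0.0106), in the order Foxm1, Mybl2 and E2f1. With sonidegib over parental cells they stood at -1.44, -1.97 and -1.36, each with an adjusted p of 0.0847.

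Other parts of the mitotic machinery were read from lists of their own. In the Ofd1 mutants over treated cells 12 of 29 other spindle and cytokinesis genes were called higher, with a median log2 fold change of 1.23, 7 of 27 other kinetochore subunits (0.78), 6 of 15 genes of cohesin, condensin II and their regulators (0.95), 1 of 10 Cdk1 brakes and phosphatases (0.54) and 28 of 44 S phase genes (1.22), and none of these lists held a gene called lower. A list for the APC/C, the ubiquitin ligase that Cdc20 activates, had a median of -0.19, and 1 of 17 genes was called. That gene was the inhibitor Fbxo5, at 1.37. Fbxo5, Fzr1 and Ube2s are on this list but are not core subunits of the ligase, and no core subunit was called. Without sonidegib replicate 2 the counts were 0 of 29, 2 of 27, 2 of 15, 0 of 10, 14 of 44 and 0 of 17 in the same order, with medians of 0.93, 1.12, 0.42, 0.28, 1.27 and 0.06. Nek2, a centrosome kinase, was called at 1.50, the condensin II subunit Ncapg2 at 2.03, the kinetochore protein Kntc1 at 2.11 and Mastl, the kinase that holds back a mitotic phosphatase, at 1.43. Of these 4, Ncapg2 was called without sonidegib replicate 2 too.

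The elements printed above can be set beside the response. In the Ofd1 mutants over treated cells the median log2 fold change was 1.43 for the 16 members with both CHR and CCAAT (12 called), 1.38 for the 19 with CCAAT alone (15 called), 1.45 for the 2 with CHR alone (2 called) and 1.21 for the 11 with neither (8 called). Bub3 has both elements, Cdc25b has 1 CCAAT match and Pttg1 has neither, so these 3 genes fall in 3 of the 4 classes. Without sonidegib replicate 2 the medians were 1.33, 1.13, 1.18 and 1.14 in the same order of classes, with 2, 1, 0 and 0 members called.

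Markers of another cell type were set beside the treated libraries. The summed astrocyte markers were at 289 to 496 CPM in the Ofd1 mutants, 389 and 456 CPM in the Sufu mutants, 991 and 666 CPM with sonidegib and 438 to 727 CPM in parental cells. Sonidegib replicate 1 thus lies above all parental libraries and replicate 2 among them. Aqp4 and Aldh1l1 were below 1 CPM in every library, and Aqp4 was at 0 in both sonidegib libraries. Gfap and Slc1a3 were called lower in the Ofd1 mutants than in treated cells, 2 of 6 tested, and without sonidegib replicate 2 Slc1a3 alone was. The summed oligodendrocyte markers were at 234 to 430 CPM in the Ofd1 mutants, 203 and 486 CPM in the Sufu mutants, 60.9 and 90.1 CPM with sonidegib and 157 to 377 CPM in parental cells, where Mag was at 0 in every library and Olig1, Sox10, Mbp and Mog were below 1 CPM on average. In Sufu replicate 2 Olig1 stood at 3.53 CPM and Sox10 at 2.81 CPM, and in no other library did either reach 1 CPM. The part of such cells in the difference of mitosis genes was not tested.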

How the data were processed

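The authors deposited 1 table of whole-number read counts, with a row for each gene symbol and a column for each of 11 poly(A) libraries. Per the labels, these were strand-specific, used 500 ng of RNA each and were sequenced at 75 bp on a single run. The submitters' processing notes name STAR, DESeq2 and mm9 without versions. The counting tool is not given in the sources used here. An entry without a gene name, 0.0131% to 0.0192% of counts, was left out. Members and lists were chosen with earlier results of these data known.

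Each pair of groups was tested by quasi-likelihood in edgeR 4.0.16 under R 4.3.3 (robust fit, TMM, filterByExpr, two-sided), with Benjamini-Hochberg adjustment over all genes tested and a threshold of 0.05. The SE is the log2 fold change over the root of F. CPM values use the library size after TMM scaling. Genes given in every library are Mki67, the member of each role with the highest mean CPM, the extremes of a comparison and the called members with the lowest p, and Cdk1, Cdc25c, Cks2, Bub1 and Cenpa were added after their values were seen. From other lists, called genes, Foxm1, Mybl2 and E2f1 were named. Transcript length is the longest in GENCODE M21, by symbol. Alternatives were DESeq2 1.42.0, RLE scaling, no filter, 1 fit over all libraries, removal of the length trend, the replicate block, and leaving out libraries. The procedure was tested on simulated data. None of the pairs of libraries checked within the groups were duplicates by a chi-square over counts. Not every pair was checked. Matches of CHR and CCAAT were counted on either strand.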

Additional observations from a re-analysis of the deposited data

Results flagged for a closer look

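In 5 of the 58 members, 1 of the 4 Ofd1-mutant libraries lay far from the other 3, and in each of the 5 it was replicate 1 of clone R14, on the low side. The gap to the nearest library, as a share of the range of the group, was 0.838 for Cdk1, 0.865 for Ube2c, 0.856 for Cenpa, 0.874 for Prc1 and 0.953 for the condensin gene Ncapd2. Ncapd2 had 567 CPM in that library and 788, 778 and 782 CPM in Ofd1 replicates 2, 3 and 4. Chance puts about 1 in 20 groups past this limit, and the members share the library. Replicate 2 of the same clone was not set apart.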

How the results depend on the processing

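Counts of members called at an adjusted p under 0.05 depended on the processing where sonidegib was compared. With sonidegib over parental cells the count was 0, but 44 with DESeq2, 4 with no filter, 33 in 1 fit of all 11 libraries, 6 with the length trend removed, and 55 with parental replicates 1 and 2 and sonidegib replicate 1 only. It was 5 with the replicate block. The count changed with 1 library left out too, and without 1 of the 2 sonidegib libraries that group holds 1 library. Save for DESeq2, shares of all genes called under these settings are not given here. Whether calls rose over the whole table as well thus cannot be told. In Sufu mutants over sonidegib the count of 0 was 19 with DESeq2, 1 with no filter, 39 in 1 fit and 0 to 1 with a library left out, with 1 without Sufu replicate 1. In Ofd1 mutants over sonidegib the 43 became 17 with the R14 libraries summed and 1 to 45 with a library left out. DESeq2 called 1 member (Cenpf) in Ofd1 mutants over parental cells and 1 (Cenpf) over Sufu mutants, where edgeR called 0 under every setting, and in Sufu mutants over parental cells no setting called any. The cause of these shifts was not tested, save that leaving out a library also removes degrees of freedom. The log2 fold change had the same sign under all settings for 56 of 58 members with sonidegib over parental cells, 57 in Sufu and 56 in Ofd1 mutants over sonidegib, but for 24 in Sufu and 32 in Ofd1 mutants over parental cells and 40 in Ofd1 over Sufu mutants. Whether same-numbered sonidegib and parental libraries form pairs cannot be told from these counts. Deviations from the group mean correlated at 0.256 and -0.317 for same-numbered libraries, and at 0.317 and -0.256 for crossed numbers. With 2 sonidegib libraries the deviations of that group mirror each other, so these values are bound to each other. Whether depth or the number of libraries limits the precision was not tested. Over all genes, DESeq2 and edgeR differed as well. DESeq2 called 212 higher and 499 lower with sonidegib over parental cells, 139 and 181 in Sufu mutants, 442 and 328 in Ofd1 mutants, 149 and 117 in Ofd1 over Sufu mutants, 507 and 279 in Sufu mutants over sonidegib and 1374 and 1161 in Ofd1 mutants over sonidegib, where edgeR called 1 and 8, 0 and 0, 25 and 25, 1 and 0, 12 and 3, and 556 and 344, in the same order.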
